A study of Mus musculus with 18 samples.

Results

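The genes described here are 40 members of the machinery that folds secreted proteins in the endoplasmic reticulum (ER), modifies collagen there and passes both on to secretion. They were taken by name as a list, and all 40 were found among the 46983 gene names of each count table. By role they are 9 chaperones and cochaperones, 6 lectin chaperones and disulfide isomerases, the transcription factor gene Xbp1, 7 genes of ER-associated degradation, 8 genes of the translocon and of ribosome docking, and 9 genes of collagen modification and folding. They lie on 17 chromosomes, 8 of them on chromosome 11 and 5 on chromosome 9. Coordinates are those of GENCODE M21 on GRCm38.

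Bulk RNA was sequenced from male mice of the inbred strain C57BL/6J, in 18 libraries. The series title concerns glutamine, the skeleton and obesity. The marrow libraries have titles reading mBMSC and the tissue label Bone Marrow, and the adipose libraries have titles reading mAT-MSC VAT. The 4 groups are marrow HFD (4 libraries) and marrow HFD with glutamine (5 libraries), and adipose HFD (4 libraries) and adipose HFD with glutamine (5 libraries). HFD stands in the descriptions of all 4 groups, so the comparator of each glutamine group also carries it. The HFD groups have the genotype label Ctrl and the treatment label no, and the others carry Glutamine in both fields. No label gives an age, a dose, a duration or a culture step. Nor does any label tie libraries to separate animals, so the spread behind each p-value is that of these libraries and may be partly technical. Each description carries a pair of numbers, used here as the library's name.

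Secreted and membrane proteins enter the ER through the Sec61 channel while they are being made. Inside, BiP (Hspa5) and GRP94 (Hsp90b1) hold the chain, calnexin (Canx) and calreticulin (Calr) bind its sugars, and protein disulfide isomerases join its cysteines. Procollagen, the bulk product of bone-forming and fibroblastic cells, also needs prolyl hydroxylases (P4ha1 and P4ha2, with P4hb as their partner subunit), lysyl hydroxylases (Plod1, Plod2 and Plod3), the prolyl isomerases Ppib and Fkbp10, the prolyl 3-hydroxylation partner Crtap, and the collagen chaperone HSP47 (Serpinh1). Chains that fail to fold are pulled back out by the Sel1l and Syvn1 complex with the derlins, and a load of unfolded protein switches on the unfolded protein response (UPR), in which IRE1 splices Xbp1 mRNA into the form that codes for an active factor. Counts at the 3′ end do not tell the spliced form of Xbp1 from the unspliced form.

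The ER stress response element (ERSE) is a promoter motif through which ATF6 and XBP1 are known to act. It was searched as CCAAT, 9 bases, CCACG, and the shorter ERSE-II as ATTGG, 1 base, CCACG, each on both strands, in RefSeq promoter windows of GRCm38.p6 that reach from 250 bases before to 50 bases after a gene's start. Windows were at hand for 33 of the 40 members. ERSE was found for 9 of these 33 genes (27.3%) and for 37 of 27025 genes with a window (0.137%). ERSE-II was found for 2 members, Herpud1 and Dnajb11, and for 12 genes of all (0.0444%). The ERSE genes are Hspa5, Calr, Canx, Hsp90b1, Pdia6, Dnajc3, Creld2, Syvn1 and Derl3. Either motif was found for 11 of the 33 genes (33.3%), and for no translocon or collagen-modifying member with a window. The members are known ER genes taken by name, so nothing is read from the gap between their share and that of all genes. A match is a description of the letters and not a site shown to be bound. The 6 windows below belong to members whose levels stand at the centre of the results, and run 5′ to 3′ on the gene's strand with the matches in capitals.
Hspa5 (chr2:34772015-34772053, plus strand): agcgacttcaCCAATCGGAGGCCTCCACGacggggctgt
Calr (chr8:84847065-84847103, minus strand): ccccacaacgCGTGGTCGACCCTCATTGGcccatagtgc
Canx (chr11:50325790-50325828, minus strand): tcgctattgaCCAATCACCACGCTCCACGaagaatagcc
Hsp90b1 (chr10:86705523-86705666, minus strand): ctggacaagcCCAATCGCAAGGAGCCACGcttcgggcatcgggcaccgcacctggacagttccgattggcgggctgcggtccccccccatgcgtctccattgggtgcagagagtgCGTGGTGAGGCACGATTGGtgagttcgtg
Syvn1 (chr19:6046522-6046560, plus strand): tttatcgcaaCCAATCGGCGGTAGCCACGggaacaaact
Herpud1 (chr8:94386367-94386397, plus strand): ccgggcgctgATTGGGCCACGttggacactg
The match ends 46 bases before the start in Hspa5, 25 in Syvn1, 41 in Herpud1, 126 in Canx and 143 in Calr. Hsp90b1 holds 2 matches, 1 in each orientation, the nearer of which ends 88 bases before its start. Calr carries the motif in the reverse orientation, as the order of its capitals shows.

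The libraries differed by tissue in what they held. Adipose libraries had 35871168 to 59529238 counts and 11361 to 14469 genes with at least 100 counts. Marrow libraries had 13970788 to 37984603 counts and only 1755 to 7323 such genes, and the 2 thinnest were HFD 23_28 (1755) and the glutamine library whose column matches no title, called unnumbered here (1831). In CPM, the usual depth-scaled count, which corrects for the total of a library and for nothing else, summed osteoblast markers stood at 1440.1 to 10300.4 in marrow and 23.9 to 59.4 in adipose, and endothelial markers at 2.13 to 256 in marrow and 396 to 1432 in adipose. Neutrophil markers reached 2698 to 54233 CPM in marrow, highest in HFD 23_28, against 45.7 to 277 in adipose. Markers of mesenchymal stroma, which the titles' MSC names, came to 3141 to 13894 CPM in marrow and 13261 to 20300.4 in adipose, and those of adipose progenitors to 13.1 to 906 and 2043 to 4414. Summed B cell and plasma cell markers came to 8.03 to 373 CPM in marrow and 474 to 5760.3 in adipose. The part of those cells in the tissue differences of Xbp1 and Derl3 was not tested. Macrophage and erythroid markers overlapped between the tissues. A count at the 3′ end does not grow with transcript length, so levels of different genes need no length correction. How reads were assigned to genes is not fully recorded, so comparisons between genes are approximate. In such bulk samples fewer cells of a type and less RNA per cell cannot be told apart. Values within a group are given in the order 1_3, 5_11, 14_17 and 23_28 for HFD, and 4_6, 10_12, unnumbered (marrow) or 13_15 (adipose), 18_20 and 25_27 for glutamine.

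Summed, the 40 genes took a smaller share of most marrow libraries than of the adipose libraries, but this did not hold for every role. They held 0.635% to 1.06% of all counts in marrow (median 0.803%) and 0.879% to 1.31% in adipose (median 1.16%). Only marrow HFD 1_3 (1.06%) and the unnumbered glutamine library (1.03%) lay inside the adipose range. The other marrow libraries, at most 0.821%, lay below it. The chaperones, Hspa5 among them, had a median sum of 2774 CPM in marrow and 5732 in adipose. For lectin chaperones and disulfide isomerases it was 1838 and 2460, and for ER-associated degradation 377 and 658. The translocon group (1754 and 1414) and the collagen-modifying genes (1408 and 1072) went the other way. How the share was filled differed too. In adipose 354 of the 360 values (40 members in 9 libraries) were at or above 100 counts, and 38 members reached that in every library. Of all 18085 genes that reached 100 counts in at least 1 adipose library, 8790 (48.6%) did so in all 9. In marrow 181 of 360 values were at or above 100 counts and 179 below, with only 16 between 50 and 249, while 154 were at 1000 or more. A given marrow library thus held some members well above 1000 counts and others at a handful, and which members these were differed from library to library. This split of values was not counted over all genes.

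**Figure D1:**
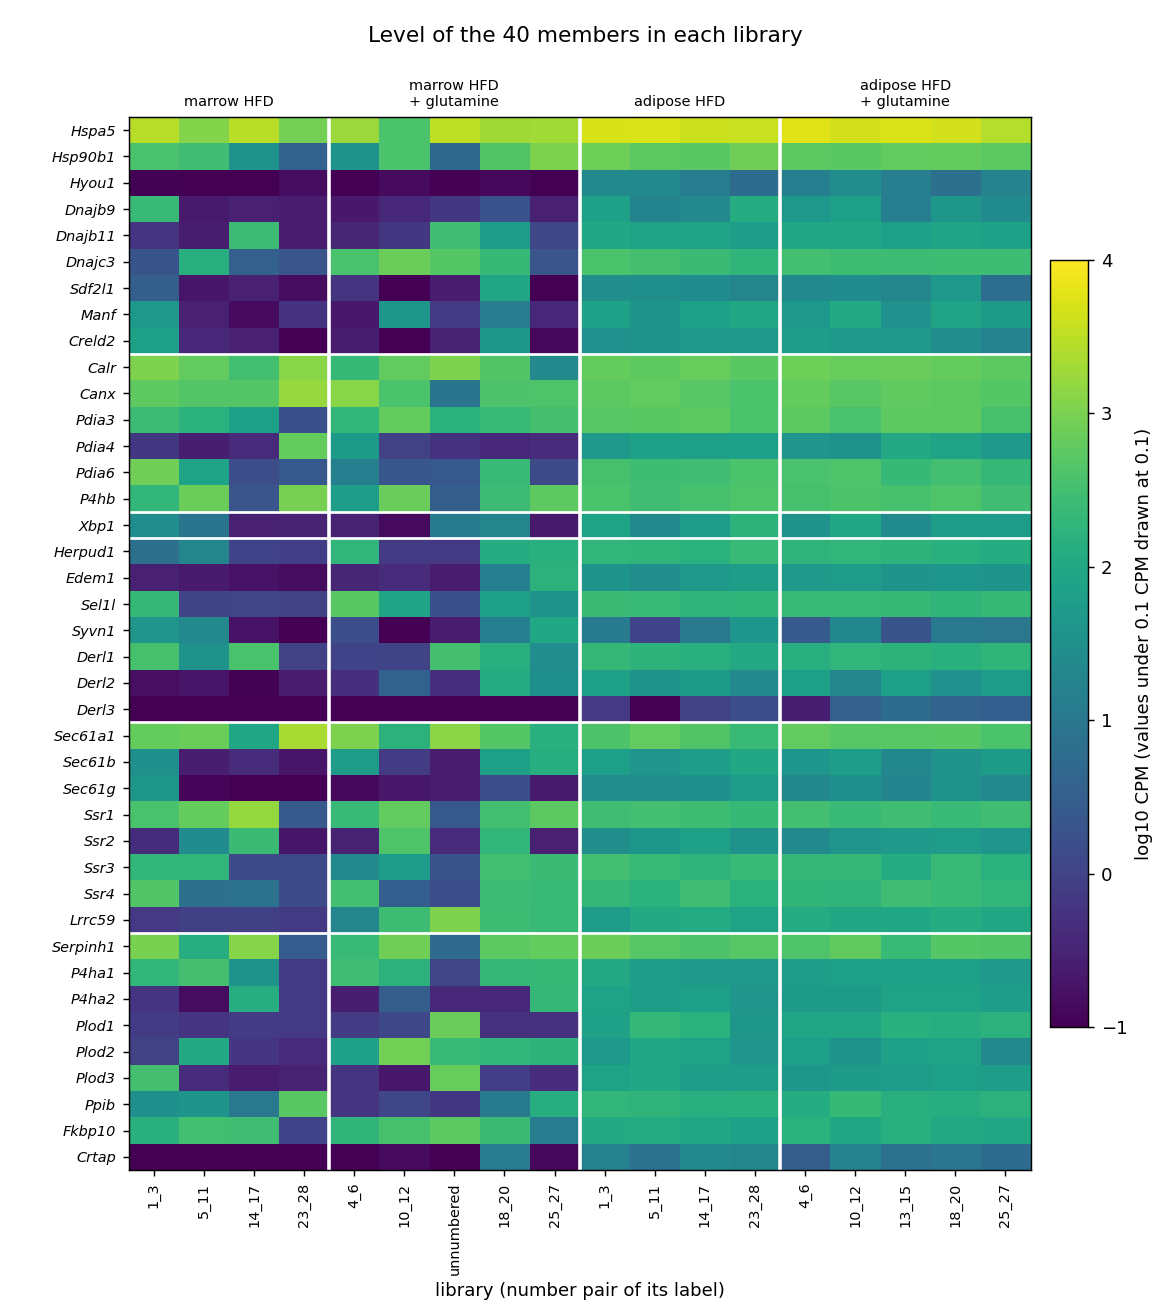
Level of each of the 40 members (rows, grouped by role with white lines between groups) in each of the 18 libraries (columns, by group), coloured by log10 CPM, with values under 0.1 CPM drawn at 0.1. The adipose columns are even, with 38 members at 100 or more counts in all 9 libraries, and the marrow columns are a mosaic of high and near-empty cells, with 4 members at 100 or more counts in all 9. Of all genes at 100 counts in at least 1 library of the tissue, 48.6% in adipose and 2.53% in marrow were so in all 9.

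The members that every marrow library held at 100 or more counts were Hspa5, Calr, Canx and Sec61a1. Of all 10376 genes that reached 100 counts in at least 1 marrow library, 263 (2.53%) did so in all 9. Fkbp10 and Pdia3 reached it in 8 libraries, and Hsp90b1, P4ha1, P4hb, Serpinh1 and Ssr1 in 7. At the other end, Hyou1 and Derl3 reached it in none, and Crtap, Dnajb9, Plod1 and Sec61g in 1. In adipose the exceptions were Derl3, at 100 counts in 4 libraries, and Syvn1, in 8. Single marrow libraries ranged from 7 members at 100 counts (HFD 23_28) to 32 (glutamine 18_20), and these counts of members moved with the number of genes of any kind that a library held, lowest (1755) and highest (7323) in the same libraries.

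Hspa5 (ENSMUSG00000026864.13, chr2:34771970-34777547, plus strand) codes for BiP, the main ER chaperone and the classical marker of ER load, and had the highest median level of all members in both tissues. Its level was 2852, 1179, 2978 and 921 CPM in marrow HFD and 1742, 389, 3354, 1905 and 1987 in marrow with glutamine. In adipose it was 4909, 5196, 3960.3 and 3797 CPM with HFD and 5911, 4537, 5211, 4499 and 2820.3 with glutamine. The lowest adipose library (glutamine 25_27) thus lay within the marrow range, 6 marrow libraries lay below all adipose libraries, and none lay above. Hspa5 alone made up 32.1% to 45.1% of the members' counts in adipose and 5.01% to 36.3% in marrow.

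The other chaperones were far less even in marrow. Hsp90b1, the ER form of HSP90, ranged from 3.62 to 1023 CPM in marrow (median 296) and 519 to 826 in adipose (median 547). The co-chaperone Dnajc3 (p58IPK) ranged from 1.95 to 764 CPM in marrow (median 144) and 183 to 377 in adipose (median 283). Dnajb11 (ERdj3), which feeds unfolded chains to BiP, lay at 0.248, 0.644 and 298 CPM (lowest, median and highest) in marrow and 64.6, 80.8 and 97.4 in adipose. Its adipose libraries thus spanned 1.51-fold, while the marrow libraries fell into 3 at 100 or more counts and 6 below. Sdf2l1, Manf and Creld2, small luminal proteins induced by the UPR, had marrow medians of 0.237, 0.546 and 0.286 CPM and adipose medians of 26.8, 65.7 and 46.6. For these 3 genes 7 or 8 of the 9 marrow libraries lay below every adipose library.

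Hyou1 (ENSMUSG00000032115.14, chr9:44379490-44392369, plus strand) codes for GRP170, the nucleotide exchange factor of BiP, and was nearly empty in marrow. Its counts were 4, 3, 0 and 3 in marrow HFD and 0, 2, 1, 4 and 3 in marrow with glutamine, out of at least 13970788 counts per library. In adipose it stood at 24.8, 23.1, 13.2 and 5.97 CPM with HFD and 14.6, 27.7, 13.8, 7.01 and 17.2 with glutamine. It was the only member whose tissues did not overlap in CPM, with all 9 marrow libraries below the lowest adipose library. Over all genes tested, 16% were apart in that direction and 0.21% in the other. The same marrow libraries held at least 5440 counts of Hspa5.

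Among lectin chaperones and disulfide isomerases, Canx and Calr were held at 100 or more counts by all 9 marrow libraries, and the isomerases by 2 to 8. Canx (calnexin, membrane-bound) lay at 581, 468, 454 and 1686 CPM in marrow HFD and 1284, 385, 8.77, 405 and 426 in marrow with glutamine. For Canx the adipose values were 538, 618, 496 and 386 CPM in adipose HFD and 664, 499, 602, 541 and 491 with glutamine. The unnumbered library is low and HFD 23_28 and glutamine 4_6 are high, and 5 of 9 marrow libraries fall inside the adipose range. Calr (calreticulin, its luminal relative) lay at 1065, 631, 312 and 1269 CPM in marrow HFD and 221, 619, 1081, 434 and 22.4 with glutamine. Its adipose libraries lay at 655, 574, 694 and 536 CPM in adipose HFD and 776, 678, 717, 659 and 547 with glutamine. Marrow libraries fell below, inside and above the adipose range in 4, 2 and 3 cases. Reads of a pseudogene named after it, Calr-ps, could be split from or added to Calr by the counting.

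P4hb, the disulfide isomerase that is also the second subunit of prolyl 4-hydroxylase, lay at 205, 745, 2.11 and 929.8 CPM in marrow HFD and 60.8, 713, 2.96, 267 and 569.8 with glutamine. Its adipose libraries lay at 389, 288, 344 and 422 CPM in adipose HFD and 357, 404, 344, 414 and 289 with glutamine. No marrow library fell inside the adipose range, since 5 lay below it and 4 above. Pdia3, which works with the lectin chaperones, was below the adipose range in 8 marrow libraries and above it in 1. Pdia6 reached 818 CPM in 1 marrow library and had a marrow median of 2.43, against 322 in adipose.

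Xbp1 (ENSMUSG00000020484.18, chr11:5520659-5525893, plus strand), the transcription factor gene of the IRE1 arm, was low in marrow. It stood at 28.2, 8.98, 0.286 and 0.298 CPM in marrow HFD and 0.301, 0.143, 11.0, 18.6 and 0.228 with glutamine, and 8 of the 9 libraries lay below every adipose library. The adipose libraries held 78.5, 25.0, 55.9 and 169.9 CPM with HFD and 35.3, 94.8, 26.3, 60.6 and 57.0 with glutamine. Its spread within adipose, 6.80-fold between the lowest and the highest library, exceeds the median of 2.28-fold over the 40 members.

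Of the ER-associated degradation genes, Derl1 and Sel1l had the highest marrow medians, 37.4 and 35.4 CPM. Sel1l, the adaptor of the ubiquitin ligase Syvn1, ranged from 0.943 to 529 CPM in marrow (median 35.4) and 176 to 258 in adipose (median 228). Herpud1, a small membrane protein that joins this complex, ranged from 0.711 to 195 CPM in marrow (median 7.00) and 125 to 239 in adipose (median 181). Syvn1 (HRD1) ranged from 0 to 95.3 CPM in marrow (median 1.59) and 1.00 to 42.0 in adipose (median 10.7), and reads of Mrpl49, which overlaps it on the other strand, cannot be told apart because the strand setting is not given. Edem1, which trims mannose from misfolded chains, was at 100 or more counts in 2 marrow libraries, both with glutamine. Derl3, the derlin of professional secretory cells, had at most 1 count in any marrow library and 0.666, 0.0279, 0.987 and 1.56 CPM in adipose HFD against 0.262, 3.48, 5.99, 3.66 and 3.18 with glutamine.

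The translocon pore was held at 100 or more counts by 9 marrow libraries, and its small subunits Sec61b and Sec61g by 4 and 1. Sec61a1, the pore itself, lay at 663, 754, 87.4 and 2194 CPM in marrow HFD and 1011, 162, 1344, 486 and 146 with glutamine, and at 396, 634, 443 and 243 in adipose HFD and 630.3, 513, 514, 520.3 and 383 with glutamine. Marrow libraries were above the adipose range in 5 cases and below it in 3. The small subunits were low by median, since Sec61b had a marrow median of 0.787 CPM and Sec61g of 0.215, against 52.1 and 28.6 in adipose. This differed by library. Sec61b lay inside the adipose range in 3 marrow libraries and above it in 1, and Sec61g inside its range in 1. HFD 23_28, the thinnest library, had 44181 counts of Sec61a1, 4 of Sec61b and 2 of Sec61g. In HFD 1_3, by contrast, Sec61b stood at 32.2 CPM and Sec61g at 44.8 beside 663 of Sec61a1. Of the translocon-associated protein subunits, Ssr1 lay at 363, 647, 1647 and 2.53 CPM in marrow HFD and 234, 617, 2.37, 300.5 and 545 with glutamine. Its adipose libraries lay at 291, 314, 275 and 228 CPM in adipose HFD and 324, 250.2, 299, 244 and 292 with glutamine, the narrowest adipose range of any member (1.42-fold). Ssr2, Ssr3 and Ssr4 had marrow medians of 0.448, 56.1 and 7.82 CPM, and adipose medians of 40.8, 214 and 191.

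The collagen-modifying genes held the members that most often lay above the adipose range in marrow, but the group was split. Plod1 and Crtap lay below that range in 8 of 9 marrow libraries, and P4ha2, Plod3 and Ppib in 7. P4ha1, the catalytic subunit of collagen prolyl 4-hydroxylase, lay at 205, 337, 36.1 and 0.695 CPM in marrow HFD and 291, 161, 1.13, 215 and 229 with glutamine. For P4ha1 the adipose values were 103, 63.1, 47.5 and 49.4 CPM in adipose HFD and 60.6, 66.7, 66.2, 67.1 and 49.5 with glutamine. Fkbp10 (FKBP65), a collagen prolyl isomerase, lay at 147, 306, 290.2 and 0.993 CPM in marrow HFD and 187, 352, 540.2, 259.5 and 12.8 with glutamine. Its adipose libraries lay at 116, 120.0, 96.6 and 72.3 CPM in adipose HFD and 157, 97.8, 138, 111 and 100.1 with glutamine. For both genes 6 of 9 marrow libraries lay above every adipose library, and for P4ha1 the other 3 lay below. Plod2, the lysyl hydroxylase of collagen telopeptides, lay at 0.921, 115, 0.607 and 0.397 CPM in marrow HFD and 71.1, 846, 236, 207 and 168 with glutamine. For Plod2 the adipose values were 46.9, 94.7, 74.9 and 39.99 CPM in adipose HFD and 67.8, 37.2, 73.4, 77.2 and 25.0 with glutamine, and 5 marrow libraries were above that range. Fkbp10 and Plod2 overlap other counted genes on the opposite strand (Nt5c3b and Gm38391), whose reads cannot be told apart from theirs. The same limit holds for Plod3 (Znhit1), Ppib (Snx22), Pdia3 (Catsper2), Pdia6 (Atp6v1c2) and Manf (Gm37612).

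Serpinh1 (HSP47), the chaperone dedicated to procollagen, had the highest median of this group in both tissues. Its level was 968, 129, 1229.6 and 2.88 CPM in marrow HFD and 235, 813, 5.21, 558 and 650.4 with glutamine, and 738, 493, 401 and 510.5 in adipose HFD and 423, 606, 239, 470.3 and 443 with glutamine. The 2 thinnest marrow libraries, HFD 23_28 and unnumbered, are the low ones. Ppib (cyclophilin B) and Crtap, which form the prolyl 3-hydroxylation complex with P3h1, were low in most marrow libraries. Ppib stood at 32.7, 38.5, 9.89 and 517 CPM in marrow HFD and 0.56, 1.15, 0.652, 11.4 and 129.7 with glutamine. For Ppib the adipose values were 194, 181, 146 and 147 CPM in adipose HFD and 123, 224, 137, 129 and 161 with glutamine. Crtap had more than 4 counts in 1 marrow library, glutamine 18_20 (401 counts), and 2.96 to 23.6 CPM in adipose.

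These enzymes modify fibrillar collagen, whose summed level stood apart between the tissues. Summed over Col1a1, Col1a2, Col3a1, Col5a1 and Col5a2, fibrillar collagen took 63327 to 295851 CPM in marrow and 19430 to 33106 in adipose, and the ranges do not overlap. Most of the marrow sum was collagen I, and single genes differed in direction: with TMM factors Col1a1, Col1a2 and Col5a2 were called lower in adipose, Col5a1 was not called, and Col3a1, singled out after its values were seen, was called higher at 2.13 ± 0.488 (adjusted p = 0.00119, edgeR). Col3a1 turned to -1.72 by RLE and -1.25 by upper quartile. The 9 collagen-modifying members summed to 524 to 2179 CPM in marrow and 943 to 1447 in adipose, and these ranges do overlap. Per 1000 fibrillar collagen counts there were 3.76 to 16.03 counts of these 9 genes in marrow libraries and 32.3 to 71.4 in adipose libraries, a ratio within a library that needs no scaling. All 40 members together came to 25.7 to 129.7 per 1000 in marrow and 266 to 623 in adipose. These ratios were formed after the values were seen and carry no test.

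**Figure D2:**
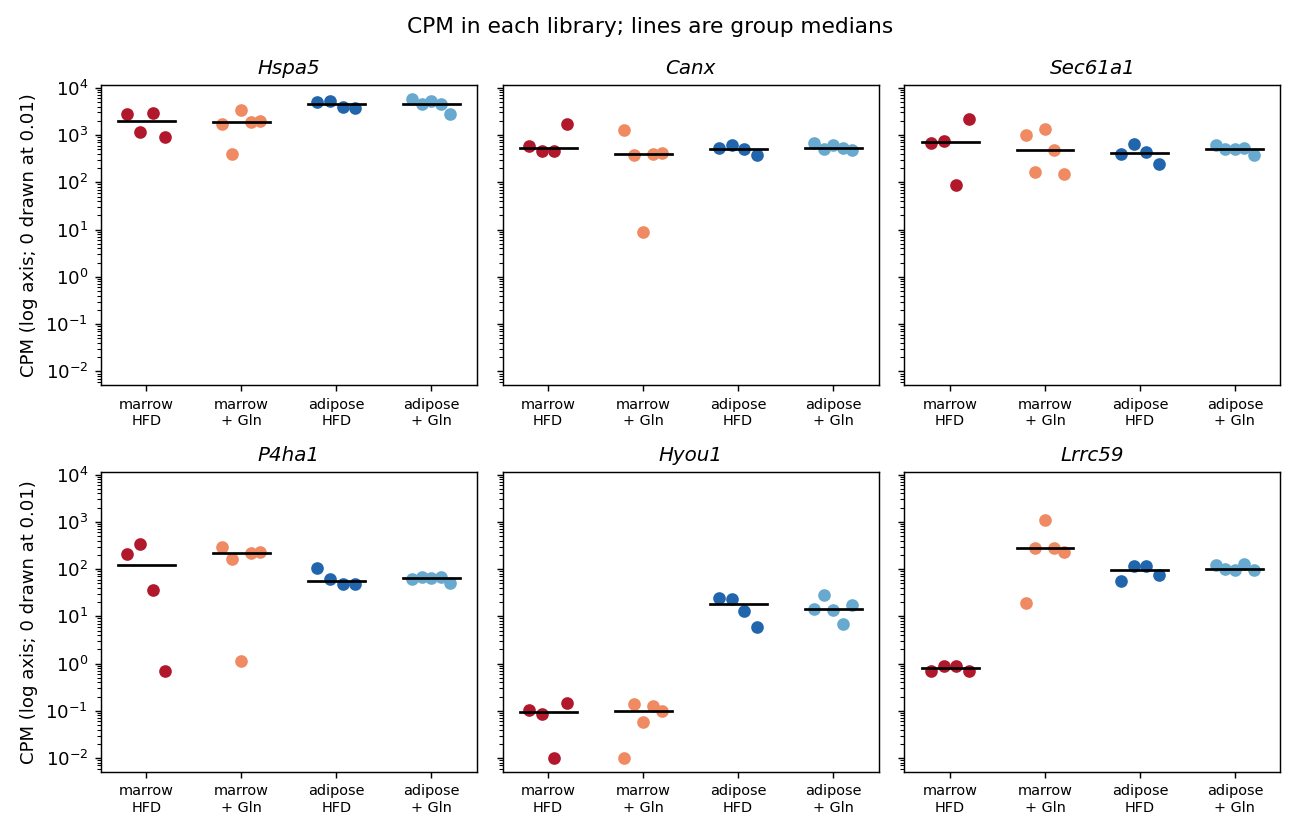
CPM (log axis, 0 drawn at 0.01) of 6 members in each library of the 4 groups, with black lines at the group medians. Hspa5, Canx and Sec61a1 are held by all 18 libraries, P4ha1 lies above or below the adipose range in marrow, Hyou1 is at 4 counts or fewer in all marrow libraries, and Lrrc59 is under 1 CPM in the 4 marrow HFD libraries.

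Adipose and marrow were compared in a fit of all 18 libraries with edgeR's quasi-likelihood test, which adjusts library totals by factors. The direction of most members depended on those factors. With TMM factors 4 members were called higher in adipose (Hyou1, Derl2, Derl3 and Crtap) and 8 lower (Sec61a1, Canx, Fkbp10, Calr, P4ha1, Ssr1, Plod2 and P4hb), at an adjusted p under 0.05, where 40.5% of the 15203 genes tested were called higher and 11.2% lower (51.7% in either direction). An unadjusted p under 0.05 was reached by 15 members, against 58.1% of genes, and 15 members lay above 0, against 62.0%. Relative log expression (RLE) factors gave 1 member higher and 28 lower, against 16.2% and 42.9% of genes. Upper-quartile factors gave 2 and 23, against 21.2% and 33.8%. With library totals alone, a setting added after the data were seen, 12 were higher and 0 lower (53.3% and 2.56%), with 15 members at an unadjusted p under 0.05. The joint TMM factors were 0.322 to 0.941 in marrow and 1.54 to 2.21 in adipose, so that they lower adipose relative to marrow, and any handling that differed between the tissues cannot be told apart from the tissue.

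Hyou1 was the only member called in 1 direction under all 4 of these scalings, where 15.7% of genes were so called higher and 2.56% lower. Its log2 difference, adipose over marrow, was 5.75 ± 0.812 (SE, adjusted p = 7.29e-06, edgeR) by TMM, 2.18 by RLE, 2.82 by upper quartile and 7.54 with totals alone. With 0 to 4 counts in marrow the size of this difference depends on the prior count of the fit. Hspa5, singled out after its values were seen, was -0.70 ± 0.393 (adjusted p = 0.139, edgeR) by TMM, -4.56 by RLE and 1.23 with totals alone, the last with an adjusted p of 0.00374 by edgeR.

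The 8 members called lower with all 3 sets of factors lost that call with totals alone. Sec61a1 stood at -2.80 ± 0.649 (adjusted p = 0.00134, edgeR) with TMM factors and -0.70 with totals alone. Fkbp10 stood at -2.92 ± 0.827 (adjusted p = 0.00623) and -1.02, and P4ha1 at -3.06 ± 0.923 (adjusted p = 0.0095) and -1.34. Of the 8, all but Calr kept their sign in the 4 scalings. Canx went from -2.21 ± 0.62 (adjusted p = 0.00621) to -0.24 and Ssr1 from -2.58 ± 0.808 (adjusted p = 0.0118) to -0.77. Plod2 went from -2.42 ± 0.968 (adjusted p = 0.0413) to -0.66, P4hb from -1.98 ± 0.824 (adjusted p = 0.0488) to -0.11, and Calr from -1.96 ± 0.584 (adjusted p = 0.00875) to 0.05, where its sign turned. Plod2 also turned to 0.36 when marrow HFD 5_11 was left out with TMM factors.

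Against the other genes of the same fit the members stood low in all 4 scalings. The 15203 genes of this fit passed a filter over both tissues, while 6041 passed in marrow alone and 15114 in adipose alone. Most thus entered through adipose, which raises the median of all genes and the share called higher. How the members stand against genes held in both tissues was not tested. Their median difference was -0.62 with TMM factors where all genes tested had 1.43, and the gap between the medians was -2.04 by TMM, -2.26 by RLE and -2.34 by upper quartile. With totals alone the medians were 1.28 and 3.17. By role the TMM medians were 0.32 for chaperones, -1.80 for lectin chaperones and disulfide isomerases, 1.03 for ER-associated degradation, -0.88 for the translocon group and -1.83 for collagen modification. Differences between roles were not tested.

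**Figure D3:**
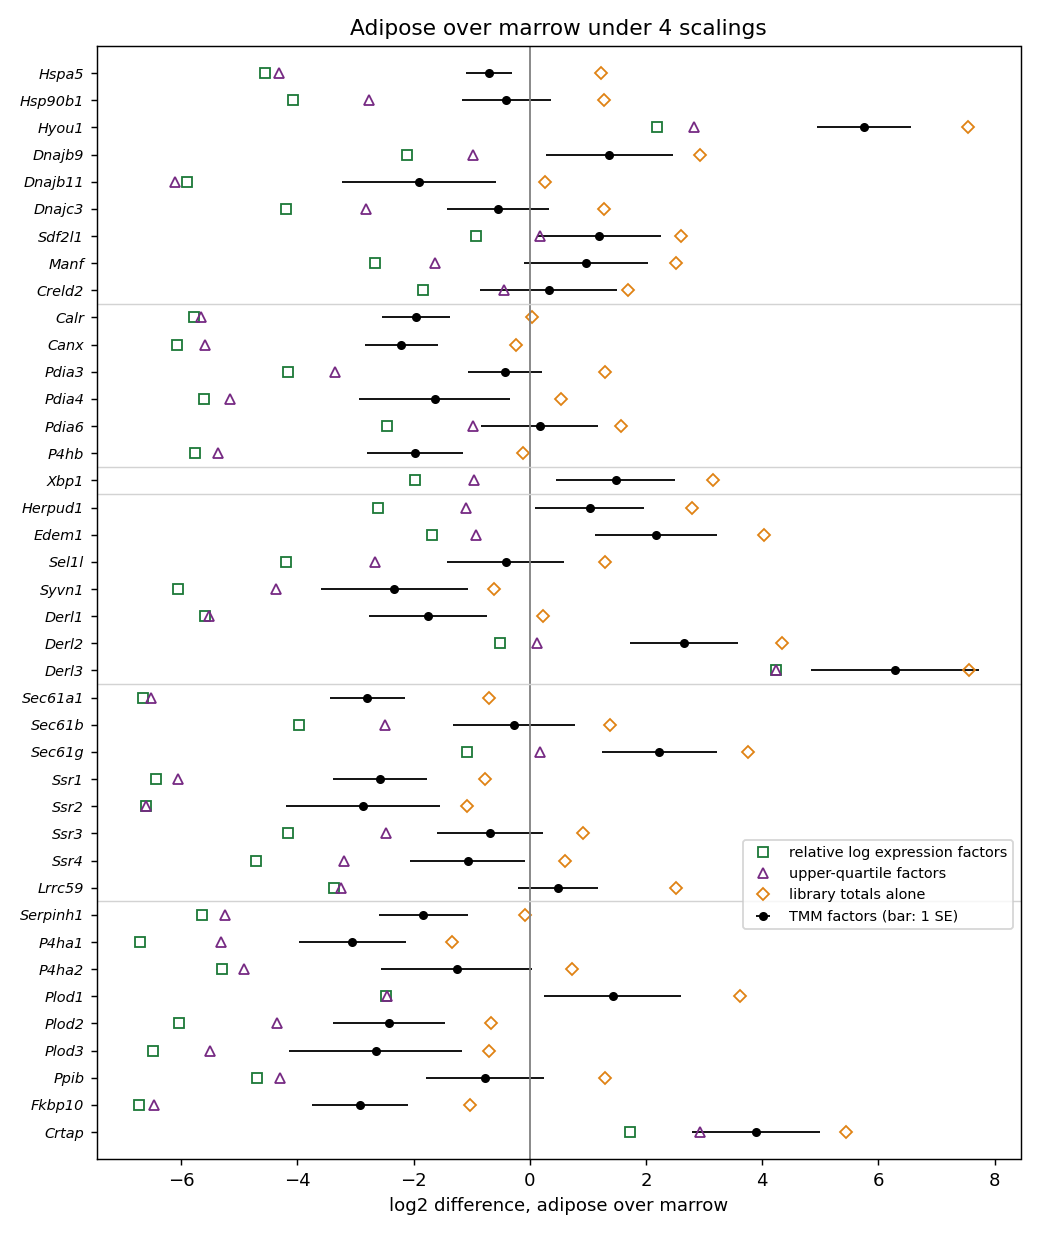
Log2 difference, adipose over marrow, of each member with TMM factors (black, bar 1 SE), RLE factors, upper-quartile factors and library totals alone, with grey lines between role groups. Hyou1, Derl3 and Crtap lie to the right of 0 in all 4 scalings, 11 members lie to the left in all 4, and the others change side.

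Genes of the same pathways outside the 40 were counted in the same fit. Of 107 listed, 105 were tested, and 10 were called higher in adipose and 17 lower with TMM factors, with a median of -0.92, against 40.5% of all genes tested called higher and 11.2% lower. With totals alone these counts were 20 and 4 and the median was 0.71. Under all 4 scalings, where 15.7% of all genes tested were called higher and 2.56% lower, 3 of the 105 were called higher (Trib3, a brake on the UPR, Tmem38b, an ER cation channel, and the procollagen protease gene Adamts14) and 4 lower (Mogs, Col1a1, Col1a2 and Col5a2). The 2 smallest p-values were those of collagen I. Col1a1 stood at 87377, 197529, 229651 and 50299 CPM in marrow HFD and 90731, 137741, 133601, 158097 and 61773 with glutamine, and at 5279, 6455, 7305 and 5536 in adipose HFD and 6960.0, 8144, 6362, 6873 and 10017 with glutamine. Its log2 difference was -6.11 ± 0.28 (adjusted p = 4.17e-12, edgeR), and that of Col1a2 was -5.11 ± 0.308 (adjusted p = 2.81e-10), and for both genes every marrow library lay above every adipose library.

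With glutamine in marrow, no member was called among the 33 that passed the count filter (edgeR, 9 libraries), where 8 of 6041 genes (0.132%) were. The filter left out Hyou1, Sdf2l1, Creld2, Edem1, Derl3, Sec61g and Crtap. Among the 33, log2 fold changes were above 0 for 17 and below for 16, where 46.6% of genes were above 0, with a median of 0.01 against -0.22 for all genes tested. An unadjusted p under 0.05 was reached by 5 members, against 18.7% of all genes tested. DESeq2 called 4 members, all higher (background 6.89% higher), and limma-voom 0. Summed over all members the level was 6346 to 10628 CPM in HFD and 7160.03 to 10336 with glutamine. Summed neutrophil markers ranged from 4186 to 54233 CPM in the HFD libraries and from 2698 to 24976 in the glutamine libraries, and their part in these differences was not tested.

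Lrrc59 (ENSMUSG00000020869.8, chr11:94629767-94645216, plus strand), which codes for a ribosome-binding protein of the ER membrane, was 1 of 2 members whose marrow groups did not overlap. It had 26, 31, 25 and 14 counts in marrow HFD and 453, 3871, 18102, 8561 and 7166 with glutamine, or 0.684, 0.892, 0.893 and 0.695 CPM and 19.5, 277, 1072, 274 and 233 CPM. Of all genes tested, 3.53% were apart in this direction and 3.77% in either. The log2 fold change was 8.73 ± 2.8 (adjusted p = 0.197, edgeR) and 8.77 with DESeq2 (adjusted p = 1.18e-06). In adipose Lrrc59 lay at 55.3, 116, 117 and 75.5 CPM with HFD and 120.1, 98.9, 93.5, 127 and 97.3 with glutamine. Of the 9 marrow libraries 5 lay below every adipose library and 4 above. Eme1 overlaps it on the opposite strand, and without the strand setting their reads cannot be told apart.

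Derl2, a derlin of the degradation channel, was the other member whose marrow groups did not overlap. Its counts were 6, 7, 3 and 5 in HFD and 11, 49, 8, 3682 and 948 with glutamine, so 2 glutamine libraries held it at 100 or more counts. In adipose it lay at 72.7, 36.9, 52.9 and 23.1 CPM with HFD and 69.5, 19.9, 65.2, 33.5 and 56.6 with glutamine. The log2 fold change was 6.20 ± 2.55 (adjusted p = 0.197, edgeR). Mis12 overlaps Derl2 on the opposite strand, and their reads cannot be told apart either. Plod1, the lysyl hydroxylase of the collagen helix, was at 28, 21, 22 and 14 counts in HFD and 17, 17, 12180, 16 and 16 with glutamine. Its fold change of 7.88 ± 3.08 (adjusted p = 0.197) rests on the unnumbered library alone and is -0.88 without it. In adipose Plod1 lay at 73.8, 218, 156 and 44.3 CPM with HFD and 91.8, 90.7, 149.5, 129.9 and 162 with glutamine.

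The other 3 named members had fold changes below 0. Dnajb9 (ERdj4), a BiP cochaperone, had 8989, 8, 8 and 5 counts in HFD and 5, 5, 11, 57 and 9 with glutamine, a log2 fold change of -6.36 ± 2.64 (adjusted p = 0.197, edgeR). Of its 9 marrow libraries only HFD 1_3 was above 100 counts, and Dnajb9 did not pass the count filter without that library or any 1 of 4 of the glutamine libraries. Pdia4 (ERp72) had 25, 9, 11 and 13462 counts in HFD and 1236, 13, 9, 12 and 13 with glutamine, -5.45 ± 2.42 (adjusted p = 0.201). Without HFD 23_28 its fold change is 4.16. In adipose Pdia4 lay at 50.1, 71.0, 67.3 and 67.6 CPM with HFD and 40.7, 37.3, 103, 75.8 and 51.5 with glutamine, with no such gap. Ppib had 1243, 1339, 277 and 10408 counts in HFD and 13, 16, 11, 356 and 3989 with glutamine, -3.77 ± 2.3 (adjusted p = 0.397), which becomes -0.15 without HFD 23_28 and 0.11 without the 2 thinnest libraries.

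None of 82 tested pathway genes outside the members was called in marrow, with 5 at an unadjusted p under 0.05, and a median of -0.04. The smallest p was that of Col1a1, at -0.80 ± 0.213 (adjusted p = 0.0737, edgeR) with TMM factors, -1.05 (adjusted p = 0.358) by RLE, -0.12 (adjusted p = 0.985) by upper quartile and -0.25 (adjusted p = 0.206) with totals alone. Fkbp11, a prolyl isomerase of secretory cells, followed at 7.61 ± 3.28 (adjusted p = 0.197), from 0.895, 0.0575, 0.214 and 0.149 CPM in HFD and 397, 0.931, 0.415, 102 and 0.748 with glutamine, where 2 libraries carry it.

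In adipose, where nearly all members were well counted, no member passed the test. Of 40 tested, 0 were called by edgeR, DESeq2 or limma-voom and 0 had an unadjusted p under 0.05 by edgeR (2 by limma-voom), where 0 of 15114 genes were called by edgeR and 4.13% had such a p. Log2 fold changes were above 0 for 14 members and below for 26, where 48.6% of genes were above 0, with a median of -0.06 against -0.02 for all genes tested. No member's groups were apart in CPM, against 1.66% of genes (1.05% higher and 0.609% lower). Hspa5 stood at 0.02 ± 0.209, Calr at 0.12 ± 0.159, Canx at 0.12 ± 0.182 and P4hb at -0.02 ± 0.172 (log2 fold change ± SE, each with an adjusted p of 1.00, edgeR).

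The 8 members with the smallest p were described further, and all had an adjusted p of 1.00 by edgeR. Plod3, the lysyl hydroxylase that also glycosylates collagen, lay at 80.9, 101.1, 61.2 and 64.6 CPM in adipose HFD and 44.4, 54.0, 57.7, 67.02 and 63.1 with glutamine, a log2 fold change of -0.46 ± 0.237. The channel subunits Sec61b and Sec61g stood at -0.63 ± 0.329 and -0.51 ± 0.354. Sec61b lay at 65.5, 39.9, 63.3 and 96.5 CPM in HFD and 41.9, 63.4, 21.9, 37.5 and 52.1 with glutamine, and Sec61g at 27.8, 28.6, 32.9 and 58.7 and 22.1, 32.6, 18.1, 37.8 and 22.2. HFD 23_28 holds the highest value of both genes, and the groups overlap.

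Ssr3, a translocon-associated subunit, lay at 327, 242, 175 and 237 CPM in HFD and 213, 214, 120.2, 238 and 158 with glutamine (-0.40 ± 0.235). Crtap lay at 15.8, 7.22, 23.6 and 20.0 and 2.96, 17.6, 7.33, 9.07 and 5.80 CPM (-0.98 ± 0.629), and Hsp90b1 at 806, 546, 536 and 826 and 542, 519, 619, 656 and 547 CPM (-0.26 ± 0.18). The groups overlap in each of these 3 genes. Herpud1 lay at 192, 186, 153 and 239 and 181, 192, 169, 149 and 125 CPM (-0.26 ± 0.199). Of the 8, Derl3 alone lay above 0, at 2.01 ± 1.46, from the levels under 6 CPM given above. Among 105 tested pathway genes none was called and 3 had an unadjusted p under 0.05, led by Mogs, which trims glucose from new glycans (-0.79 ± 0.296), and by Lox, which cross-links collagen outside the cell (0.48 ± 0.201), both with an adjusted p of 1.00.

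**Figure D4:**
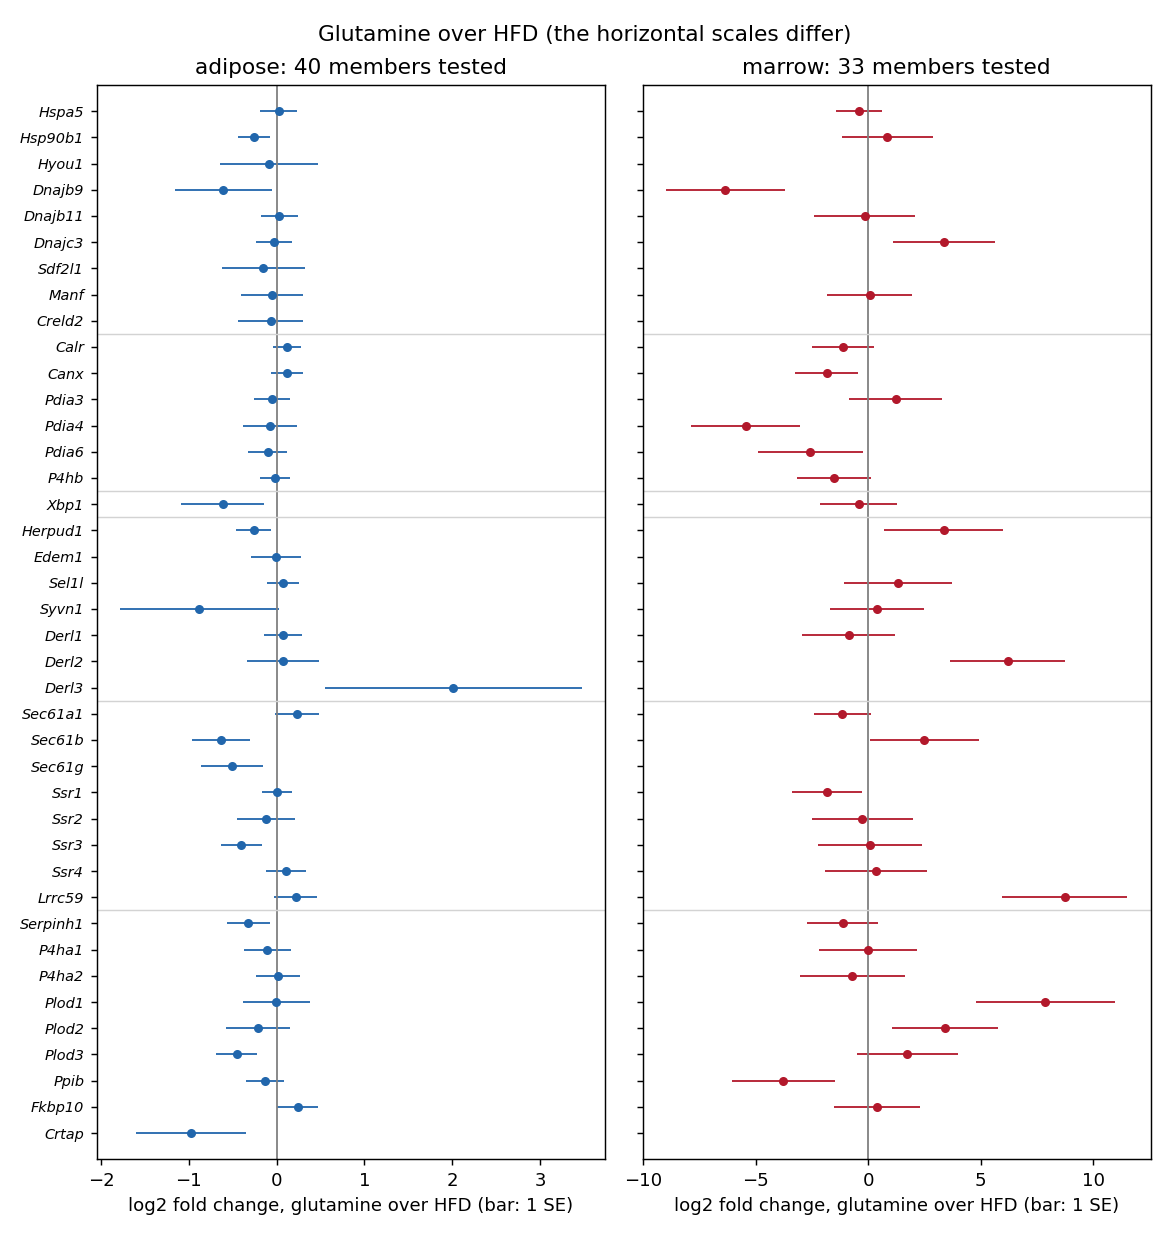
Log2 fold change, glutamine over HFD, of each tested member in adipose (left, 40 members) and marrow (right, 33 members), with bars of 1 SE and grey lines between role groups. The horizontal scales differ: the adipose values lie between -0.98 and 2.01 with narrow bars, and the marrow values between -6.36 and 8.73 with wide ones.

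The difference between the 2 glutamine effects was tested in the fit of all 18 libraries, as adipose effect minus marrow effect. That fit takes the same spread per gene for both tissues, although marrow libraries varied far more than adipose ones. Its errors and p-values can thus understate the marrow spread. For Lrrc59 the SE was 2.80 in the fit of marrow alone and 1.57 for the difference. With TMM factors 4 members were called, all lower, where 7.87% of 15203 genes were called lower and 4.05% higher (11.9% in all). An unadjusted p under 0.05 was reached by 8 members, against 27.5% of genes, and 17 members lay above 0, against 46.7%. The 4 were Lrrc59 at -8.65 ± 1.57 (adjusted p = 0.0432, edgeR), Derl2 at -6.54 ± 1.91 (adjusted p = 0.0432), Edem1 at -7.23 ± 2.23 (adjusted p = 0.0444) and Crtap at -6.74 ± 2.16 (adjusted p = 0.0478). The adipose effects of the 4, none of them called, were 0.22 ± 0.247, 0.07 ± 0.408, -0.01 ± 0.283 and -0.98 ± 0.629. Edem1 had 11, 8, 5 and 3 counts in marrow HFD and 8, 6, 4, 450 and 5112 with glutamine, and Crtap 1, 1, 0 and 1 and 0, 2, 0, 401 and 4, so that Edem1 is carried by 2 libraries and Crtap by 1. In adipose Edem1 lay at 39.6, 29.4, 49.7 and 62.9 CPM with HFD and 49.3, 58.5, 39.4, 43.0 and 38.1 with glutamine. None of the 4 calls held by RLE or by upper quartile, where 0 genes of any kind were called, and 0 members were called when any single adipose library or marrow HFD 23_28 was left out (8 at an unadjusted p under 0.05 with all libraries). All 4 held with library totals alone, where 10.1% of genes were called lower.

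Among the pathway genes the difference was 8.70 ± 2.31 (adjusted p = 0.0432, edgeR) for Spcs3, a signal peptidase subunit, and -7.23 ± 2.22 (adjusted p = 0.0441) for Srp14, a part of the signal recognition particle. Spcs3 lay at 87.2, 243, 0.0357 and 0.248 CPM in marrow HFD and at most 0.325 with glutamine, and Srp14 at 0.737, 0.489, 0.464 and 0.447 CPM in marrow HFD and 0.387, 0.859, 152, 216 and 0.358 with glutamine. Here too 2 marrow libraries carry each gene. Of 105 pathway genes tested, 1 was called higher and 4 lower.

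Some members varied widely over the 9 adipose libraries of both arms. The ratio of the highest to the lowest of the 9 had a median of 2.28 over the 40 members, was under 2 for 13 and over 5 for 6, namely Derl3 (215-fold), Syvn1 (41.8), Dnajb9 (9.07), Crtap (7.97), Sdf2l1 (7.30) and Xbp1 (6.80). In a description made after the values were seen, for 6 members, Dnajb9, Herpud1, Sec61b, Serpinh1, Syvn1 and Xbp1, the same 3 libraries held the 3 highest levels, HFD 1_3, HFD 23_28 and glutamine 10_12. This was the commonest of the 84 possible sets of 3 libraries among the 40 members, and the next held 4. How many of all genes share this set was not counted, so nothing is read from its being the commonest. Syvn1 lay at 12.3, 1.00, 10.7 and 42.0 CPM in HFD and 2.60, 21.1, 1.97, 10.7 and 9.40 with glutamine, and Dnajb9 at 71.8, 18.4, 22.3 and 124 and 45.7, 67.4, 13.7, 45.3 and 25.7.

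The summed B cell and plasma cell markers were highest in the same 3 libraries. They came to 3260.2, 1316, 1832 and 5760.3 CPM in adipose HFD and 1958, 3112, 1416, 931 and 474 with glutamine. Of the 8 markers 7 reached 100 counts in at least 1 library of each adipose group, and Cd79a is listed at 0 in all of them. Xbp1 and its targets are known for a high level in plasma cells, and the part of those cells in the spread of these members was not tested. The other 34 members had another set of 3 highest libraries. For Hspa5 these were HFD 5_11, glutamine 4_6 and glutamine 13_15. Other genes known as UPR targets were among them, with Derl3 highest in glutamine 10_12, 13_15 and 18_20, Sdf2l1 in HFD 1_3, HFD 5_11 and glutamine 18_20, Hyou1 in HFD 1_3, HFD 5_11 and glutamine 10_12, and Creld2 in HFD 14_17, HFD 23_28 and glutamine 4_6.

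**Figure D5:**
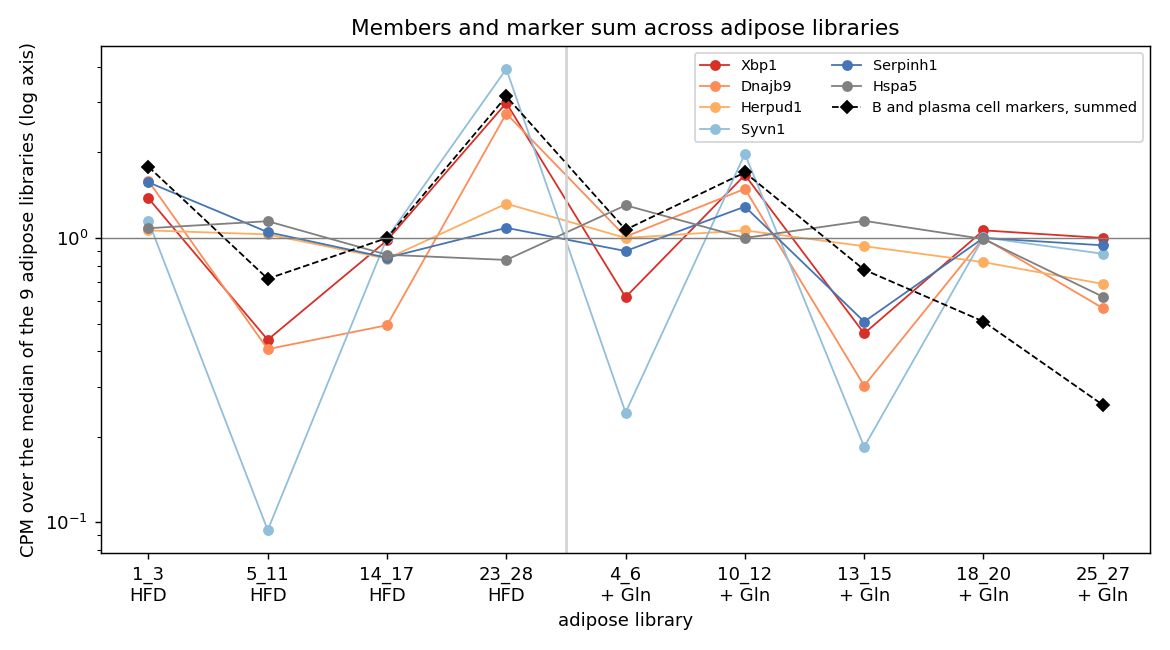
CPM of 6 members (coloured lines) and of the summed B and plasma cell markers (black dashed line) in each adipose library, each divided by its median over the 9 libraries, on a log axis, with a vertical line between the arms. Xbp1, Dnajb9, Herpud1, Syvn1, Serpinh1 and the marker sum are highest in HFD 1_3, HFD 23_28 and glutamine 10_12, and Hspa5 (grey) is not. For Herpud1 and Serpinh1 the margin over the next library is narrow. The members drawn were picked after the values were seen.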

How the data were processed

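The values are raw read counts per gene, deposited as 1 table for each tissue. Libraries were made with a 3′ end kit (QuantSeq FWD) from total RNA with an RNA quality number over 7, and read 1 alone was used, per the labels' protocols. The submitters' processing notes name FastQC 0.12.1, STAR 2.7.10b, HTSeq 0.11.3 and GRCm38. Which annotation, strand setting and handling of duplicates made the counts is not recorded in any source read for this work. Of 46983 gene names, 40115 matched GENCODE M21 directly and 4029 after restoring replaced characters, and 2839 did not match. No column of sample values went unused, and 1 marrow column matched its group but no single title.

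Genes were kept by filterByExpr, scaled by TMM and tested with edgeR 4.0.16 (glmQLFit and glmQLFTest, two-sided, R 4.3.3) with Benjamini-Hochberg adjustment over all genes tested, and called at an adjusted p under 0.05. Standard errors are the log2 fold change divided by the root of F. Tissue and its interaction with glutamine were tested over 18 libraries, and glutamine within each tissue over 9. The fit over 18 libraries takes the same spread per gene for both tissues, which can understate that of marrow. Fits were tested on simulated data with known changes. The simulation gave all libraries the same pooled profile and a fixed spread, unlike the marrow libraries. It thus cannot show how the fits behave on the marrow values. Alternatives were RLE and upper-quartile factors, other count filters, DESeq2 1.42.0, limma-voom (limma 3.58.1), robust edgeR, a replicate block and leaving out each library. Library totals with no factors were added after the data were seen. Members and lists were chosen with earlier results of these data known. Fold changes were printed for up to 8 members a direction (tissue, called under TMM, RLE and upper quartile alike) or the 6, 8 and 4 with the smallest p (marrow, adipose, interaction), and for 2 pathway genes a comparison. RefSeq promoter windows were matched by symbol for 33 members. Tables were read with Python 3.11.15 and pandas 2.3.3, and plots made with matplotlib 3.10.9.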

Additional observations from a re-analysis of the deposited data

Results flagged for a closer look

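Of 112 sets of 4 or 5 libraries (27 named members and the sum of all 40, in each group), 21 held a library far from the others, with its gap to the next library over the group's range above Dixon's limit. Chance gives about 1 in 20 sets where values are normally spread. The marrow values were not, with 179 of 360 under 100 counts and only 16 between 50 and 249, and some members were named for their small p in marrow, so nothing is read from the number 21. Of the 21, 20 were in marrow and 1 in adipose, and in all 21 the library apart was the highest.

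In marrow HFD the library 1_3 stood apart for Dnajb9 (237 CPM), Plod3 (342 CPM), Sec61b (32.2 CPM) and Sec61g (44.8 CPM), each under 1 CPM in the other 3 libraries. The library 23_28, the thinnest of the series, stood apart for Canx (1686 CPM), Pdia4 (668 CPM) and Ppib (517 CPM), and 5_11 for Plod2 (115 CPM). In marrow with glutamine the unnumbered library stood apart for Lrrc59 (1072 CPM), Plod1 (721 CPM), Plod3 (674 CPM) and the sum of all 40 members (10336 CPM). The library 18_20, which held the most genes of the marrow libraries, stood apart for Derl2 (118 CPM), Crtap (12.9 CPM), Dnajb9 (1.83 CPM) and Sec61g (1.57 CPM). The remaining ones were Edem1 (166 CPM) and Ppib (129.7 CPM) in 25_27, Plod2 (846 CPM) in 10_12 and Pdia4 (53.2 CPM) in 4_6. In adipose the only case was Sec61g in HFD 23_28 (58.7 CPM).

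The glutamine effect differed between the tissues, by the interaction test with TMM factors, for Lrrc59 (-8.65), Derl2 (-6.54), Edem1 (-7.23), Crtap (-6.74), Srp14 (-7.23) and Spcs3 (8.70), as log2 adipose effect minus marrow effect. Lrrc59 is the only one of these 6 genes in which all 5 glutamine libraries of marrow differ from all 4 HFD libraries by more than 10-fold. With RLE or upper-quartile factors, limma-voom or the replicate block 0 members were called, and likewise without any 1 adipose library or marrow HFD 23_28. Library totals alone gave 5 members lower (10.1% of genes), and DESeq2 1 higher and 2 lower (3.22% and 3.76% of genes). None of the 6 genes was called under every scaling. The fit takes the same spread for both tissues, so its errors can understate that of marrow.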

How the results depend on the processing

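With TMM factors 4 members were called higher in adipose than in marrow and 8 lower. These counts were 1 and 28 with RLE factors, 2 and 23 with upper-quartile factors, 12 and 0 with library totals alone, 1 and 23 with DESeq2, and 13 and 3 with limma-voom. Leaving out single libraries gave 4 to 9 higher, with 9 without marrow HFD 1_3 and 7 without marrow GLN 18_20, and 6 to 8 lower. The calls over all genes moved alike, from 6150 higher and 1708 lower by TMM to 2465 and 6524 by RLE, 3222 and 5144 by upper quartile, 8098 and 389 with totals alone, 2262 and 4160 with DESeq2 and 4085 and 378 with limma-voom. For glutamine in marrow the 0 members called became 4 with DESeq2 and 7 in the joint fit of both tissues, and stayed 0 without any single library. Over all genes the 0 calls higher and 8 lower became 416 and 306 with DESeq2, 100 and 102 with no count filter, and 2590 and 1336 in the joint fit. For glutamine in adipose 0 members were called under every alternative run, and DESeq2 called 28 genes of all higher and 3 lower. The 4 members called for the tissue difference of the glutamine effect became 0 with RLE, upper-quartile factors and limma-voom and 1 with no count filter. Robust edgeR called 4 lower, and library totals alone and the filter of at least 100 counts in 4 libraries 5 each, all lower. DESeq2 called 1 higher and 2 lower. Leaving out single libraries gave 0 to 6, with 0 without any 1 adipose library or marrow HFD 23_28 and 1 without marrow HFD 1_3 or 14_17. Over all genes the 615 calls higher and 1196 lower became 0 and 0 with RLE, upper-quartile factors and the replicate block, and 3 and 0 with limma-voom. They became 490 and 571 with DESeq2 and 616 and 1535 with library totals alone.

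Of the named genes, Calr turned to 0.045 in the tissue comparison with library totals alone, and Plod2 ranged from -2.58 to 0.36 over the libraries left out. For glutamine in marrow, without the 2 thinnest libraries Plod1 was -0.58, Pdia4 4.49 and Ppib 0.11. Leaving out single libraries gave -0.88 to 8.72 for Plod1 and -9.52 to 4.16 for Pdia4. Of the values of single genes under all alternatives, 617 kept their direction and their side of the threshold, 155 lost the call, 12 gained it and 7 turned. The cause of these changes was not tested. The same numbers occur in marrow and adipose, but of 8 pairs 0 deviated together with a correlation over 0.1 (-0.00906 to 0.0302) and 2 correlated best with their own number. With the number as a replicate block, 13 members were called higher in adipose, 2 lower, and 0 for the difference of the glutamine effects. Within a tissue no block could be fitted, since the arms share no number. In marrow 179 of 360 values lay under 100 counts, which limits what can be said there of single members.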

Other observations

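In adipose, glutamine 25_27 held 2.58 CPM of summed mesothelial markers, against 221 to 599 in the other 8 libraries, and the lowest level of 7 members and the highest of none. Hspa5 was lowest there, at 2820.3 CPM.

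With TMM factors fibrillar collagen genes lay above 0 in all 5 cases for glutamine in adipose (median 0.15), where 48.6% of all genes tested did. The highest summed level in adipose was that of glutamine 25_27, at 33106 CPM, followed by glutamine 10_12 at 26355. How far these signs rest on glutamine 25_27 was not tested. In marrow 4 of 5 lay below 0 (median -0.55), where 46.6% of all genes tested lay above 0, with a median of -0.22. With library totals alone the marrow medians were -0.01 for fibrillar collagen and 0.27 for all genes. None was called in either tissue by edgeR, and 0 in adipose and 1 in marrow had an unadjusted p under 0.05.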
